A study of Saccharomyces cerevisiae with 12 samples.

Results

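The comparison described here sets adapted *ulp2* null cells, grown for 500 generations (500G), against wild-type cells sampled at 50 generations (50G). Its changes rest on 6 of the 12 RNA-seq libraries of the series, 3 of *ulp2* null 500G cells and 3 of WT 50G cells, chosen by the strain and passage in the library titles. The 3 WT 500G libraries served for a second contrast, since the first one changes *ULP2* and passage at once and those effects cannot be told apart within it. All cells were haploid budding yeast of the MHY1379 background, in which the chromosomal *ULP2* gene is replaced (*ulp2Δ::HIS3*) and which carries *his3*, *leu2*, *lys2*, *trp1* and *ura3* alleles. By the study's methods, the *ulp2* null cells received the empty YCplac33 plasmid with its *URA3* marker, and the WT cells received the same plasmid bearing *ULP2*. Cultures were passaged in YPD, a rich glucose medium, by growth to stationary phase and daily dilution, and RNA was taken from cells described as mid-exponential. The sources do not say whether the 3 replicates of a group were separate lines. If they shared a line, the p-values measure only the spread between cultures of that line. By the study's account the 500G null line also carried changed *UBC9* and *IFM1* genes, and the WT 500G line a changed *BUB1* gene.

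Ulp2 is a protease that removes the small protein modifier SUMO from its targets, and in particular shortens SUMO chains. Many of the genes described below belong to the carbon metabolism of yeast. In glucose, yeast cells ferment and keep the genes for acetate, ethanol, lactate and fatty acid use repressed. When glucose runs out this repression is lifted, and activators of these genes include Adr1, Cat8, Oaf1 and Pip2. Ethanol is then oxidized to acetate and acetyl-CoA, and fatty acids are broken down by beta-oxidation, which in yeast takes place in the peroxisome alone.

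The values are FPKM, fragments scaled to transcript length and to the mapped fragments of a library. They were compared as log2(FPKM + 1) in limma over the 6572 genes whose mean level over the 12 libraries reached 1 FPKM. All 12 libraries, those of *ulp2* null cells at 50G among them, entered the fit and its estimate of spread. With Benjamini-Hochberg adjustment, a gene is called higher or lower at an adjusted p under 0.05. Changes are *ulp2* null 500G minus WT 50G on that log2 scale unless another pair is named, and values after ± are the SD of 3 libraries. *ULP2*, the deleted gene, had 0.0543, 0.412 and 0.995 FPKM in *ulp2* null 500G libraries, against 206, 217 and 207 FPKM in WT 50G libraries. Markers of MATa cells summed to 1442 to 1841 FPKM in *ulp2* null 500G libraries and 1650 to 2118 FPKM in WT 50G libraries, while MATα-specific genes summed to at most 58.1 FPKM. The table holds no counts, so the depth of each library is unknown. The sum of FPKM over all genes was 1376590 to 1449581 in *ulp2* null 500G libraries, against 1123497 to 1160554 in WT 50G libraries. A pair of marker genes also separated the strains. *URA3*, carried by the plasmid, had 36.7, 38.7 and 35.4 FPKM in *ulp2* null 500G cells, against 2071, 2169 and 2388 FPKM in WT 50G cells. *TRP1* had at most 0.384 FPKM in *ulp2* null 500G cells, against 36.3 to 38.3 FPKM in WT 50G cells. The low *URA3* level of the *ulp2* null libraries goes against the *URA3* plasmid that the methods give them, and the *TRP1* difference is not one that a shared *trp1* allele would give. The cause of neither was tested.

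Of 5891 protein-coding genes tested, 975 (16.6%) were higher and 1113 (18.9%) were lower in *ulp2* null 500G cells when set against WT 50G, and the median change was -0.02. Over 2-fold, 87 genes (1.48%) were higher and 79 (1.34%) were lower. The 2 groups of libraries did not overlap for 2941 coding genes (49.9%). These shares are the background for every count below. Scaling each library to an equal sum of FPKM moved the median coding change to -0.32 and the calls to 318 higher and 2829 lower, that is 10.1% higher among all calls against 46.7% as deposited. Median-of-ratios scaling left the median at -0.0040, with 1095 higher and 1065 lower. Against WT 500G cells, 298 coding genes (5.06%) were higher and 383 (6.50%) were lower in *ulp2* null 500G cells, of which 19 (0.323%) and 16 (0.272%) passed 2-fold. Of the 87 coding genes over 2-fold higher than in WT 50G, 23 were also higher than in WT 500G and 6 were lower than in WT 500G. Of the 79 that were over 2-fold lower, 11 were also lower than in WT 500G and 2 were higher than in WT 500G.

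**Figure D1:**
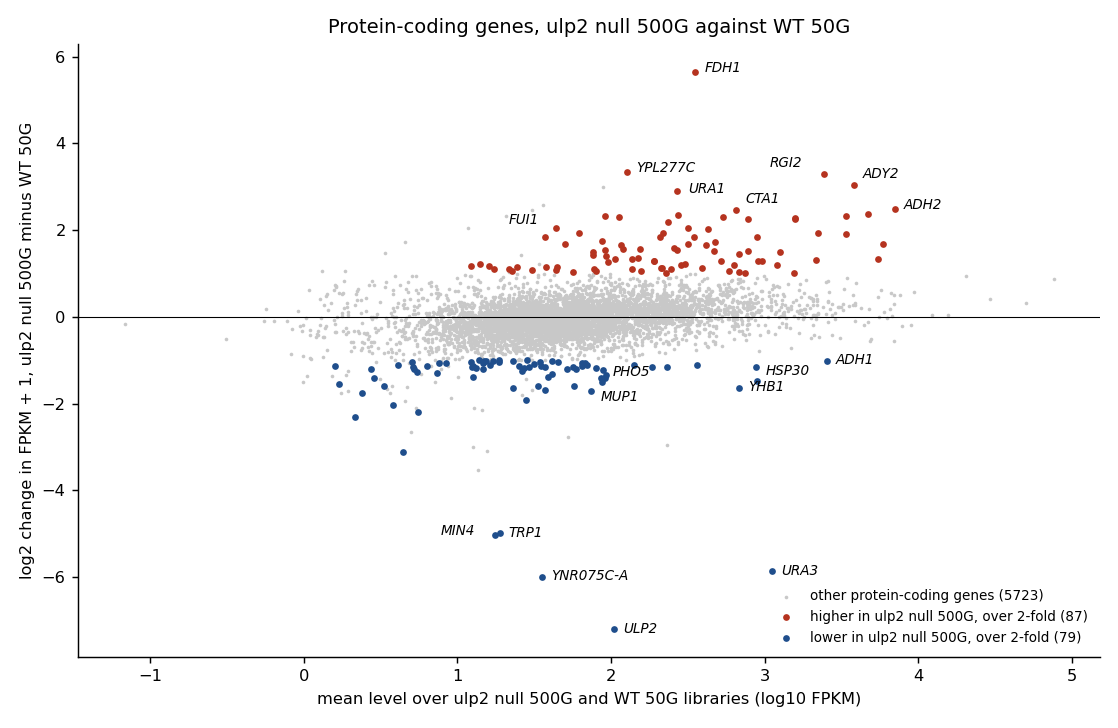
Change of each protein-coding gene (log2 of FPKM + 1, *ulp2* null 500G minus WT 50G, vertical axis) against its mean level over the 6 libraries (log10 FPKM, horizontal axis). Red points are the 87 genes higher and blue points the 79 genes lower by over 2-fold at an adjusted p under 0.05, and *FDH1* stands apart at 5.65.

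The largest rise of any coding gene was that of *FDH1*, which encodes the NAD-dependent formate dehydrogenase that oxidizes formate to carbon dioxide. It had 702, 692 and 691 FPKM in *ulp2* null 500G libraries, against 13.6, 12.8 and 12.2 FPKM in WT 50G libraries. The ratio of the group means was 54.0 (log2 change 5.65, SE 0.08, adjusted p = 5.5e-12). WT 500G libraries lay between, at 148, 146 and 131 FPKM, and the null strain was also higher than these (2.29, adjusted p = 2.9e-08). *FDH1* lies on chromosome XV from 1071793 to 1072923 in the R64 assembly. A near-identical copy on chromosome XVI is annotated as the adjoining pseudogenes *FDH2* and *YPL276W*, and *FDH1* aligns there over 1132 bases at 99.6% identity. *FDH2* had 926, 979 and 964 FPKM in *ulp2* null 500G cells, against 17.3, 15.5 and 14.6 FPKM in WT 50G cells (5.84, adjusted p = 1.7e-11). Because only reads with a single location were kept, and since the copies differ at few bases, the division of reads between them is uncertain.

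Genes next to the formate dehydrogenase copies, on a single side of each, moved with them. *YPL277C*, of unknown function, was the second largest rise of a coding gene, at 208, 254 and 239 FPKM in *ulp2* null 500G cells, against 21.3, 23.3 and 21.6 FPKM in WT 50G cells (3.34, adjusted p = 1.4e-09). Its neighbour *YPL278C* rose by 2.30 (adjusted p = 2.1e-07). Both match *YOR389W*, the gene that follows *FDH1* on chromosome XV, with 96.8% identity over 1374 bases for *YPL277C* and 99.7% over 303 bases for *YPL278C*. *YOR389W* rose by 1.14 (adjusted p = 5.5e-06). All 3 were also higher than in WT 500G cells, by 1.36, 1.29 and 0.84. The rise did not extend to the genes that directly flank these on chromosome XVI. *SAM3*, on the far side of *FDH2*, changed by -0.32 (adjusted p = 0.22), and *FEX2*, on the far side of *YPL278C*, fell by 0.72 (adjusted p = 0.0073). On chromosome XV, *YOR387C*, on the far side of *FDH1*, changed by -0.02 (adjusted p = 0.96). *FEX1*, on the far side of *YOR389W*, changed by -0.37 (adjusted p = 0.18). Further out, *HSP32*, the gene beyond *FEX2*, rose by 0.57 (adjusted p = 0.0077). *HSP33*, the gene beyond *FEX1*, rose by 0.56 (adjusted p = 0.0065). Neither differed from WT 500G cells at an adjusted p under 0.05 (-0.05 and -0.23). *YOR389W*, the flanking genes and those further out were named after their values were seen.

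**Figure D2:**
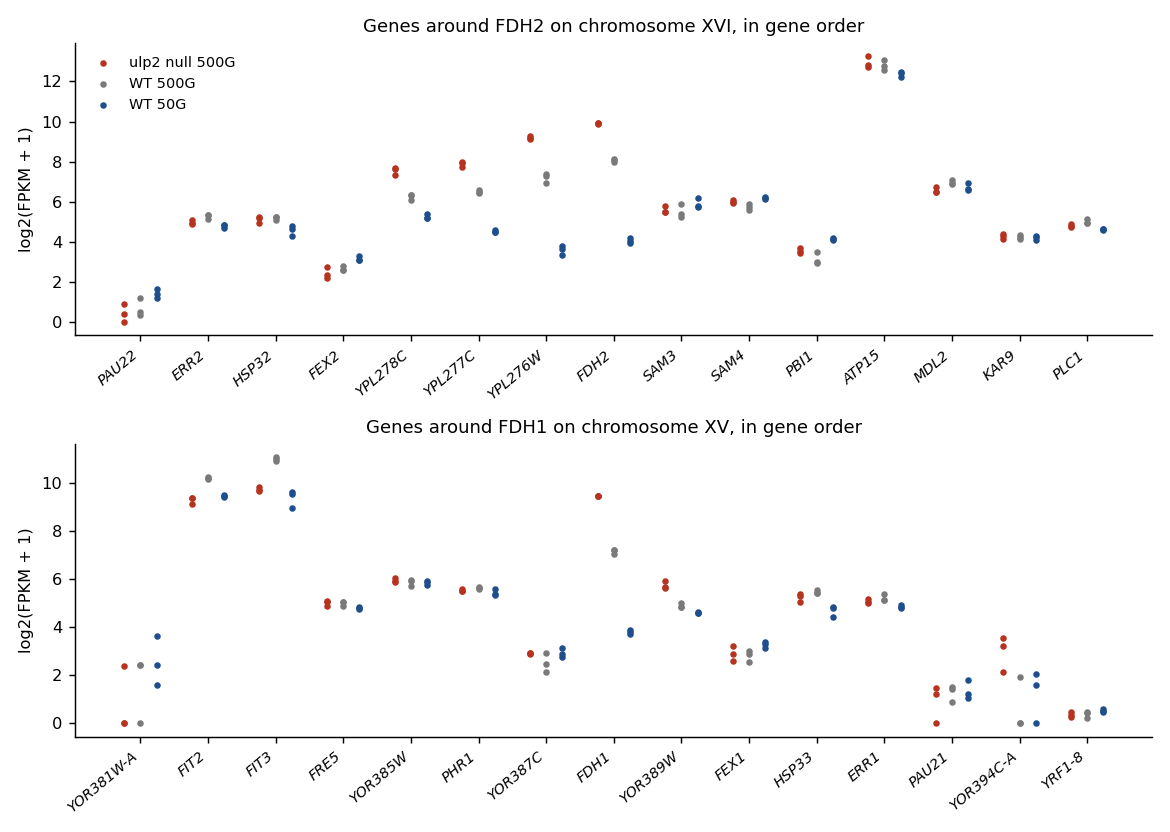
Levels (log2 of FPKM + 1) of the genes around *FDH2* on chromosome XVI (top) and around *FDH1* on chromosome XV (bottom), in gene order, with 1 point per library. In the top panel the 4 genes from *YPL278C* to *FDH2* are highest in *ulp2* null 500G (red), lower in WT 500G (grey) and lowest in WT 50G (blue), and in the bottom panel the same order holds for *FDH1* and *YOR389W*.

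Genes for the uptake and use of acetate and related carboxylates also rose. *ADY2*, the main acetate transporter of the plasma membrane, had 8418, 6045 and 5894 FPKM in *ulp2* null 500G cells, against 988, 725 and 753 FPKM in WT 50G cells (3.04, SE 0.24, adjusted p = 8.1e-06). The lowest null library was thus well above the highest WT 50G library. Of the 9 genes for acetate, ammonium, lactate and carnitine-linked transport, 8 were higher and 0 lower, with a median change of 1.03. The calls included *ATO3* (2.30) and *ATO2* (1.19), which are related to *ADY2*, and *JEN1*, the lactate and pyruvate carrier (1.32). The exception was *AGP2*, a carnitine transporter, at 0.02 (adjusted p = 0.96). *ADH2*, the alcohol dehydrogenase that oxidizes ethanol, reached 11912, 12545 and 11232 FPKM in *ulp2* null 500G cells, against 2096, 2153 and 2110.1 FPKM in WT 50G cells (2.49, adjusted p = 5e-09). *ADH1*, the isoenzyme that makes ethanol during fermentation, fell by 1.01 (adjusted p = 3.9e-05), to 1674 ± 90.2 FPKM in *ulp2* null 500G cells, against 3386 ± 261 FPKM in WT 50G cells. The next steps rose as well. *ALD4*, the mitochondrial acetaldehyde dehydrogenase, rose by 1.91, and *ACS1*, an acetyl-CoA synthetase, rose by 1.92 to 3539 ± 49.9 FPKM in *ulp2* null 500G cells, against 932 ± 40.1 FPKM in WT 50G cells.

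The 3 genes of the mitochondrial methylcitrate cycle, which breaks down propionyl-CoA, were all higher. *CIT3*, its citrate synthase, had 1378, 1239 and 1259 FPKM in *ulp2* null 500G cells, against 280.3, 260.1 and 261 FPKM in WT 50G cells (2.27, adjusted p = 1.9e-09). *ICL2*, the methylisocitrate lyase, rose by 1.94 (adjusted p = 1.8e-09), and *PDH1*, the methylcitrate dehydratase, by 1.51 (adjusted p = 5e-07).

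The glyoxylate cycle and gluconeogenesis did not follow as a group. Of 10 genes, 4 were higher and 1 was lower, and the median change was 0.05. Under an equal sum 2 were higher and 6 lower, with a median of -0.26. *ICL1*, the isocitrate lyase that opens the glyoxylate cycle, was lower at 3852, 4288 and 4289 FPKM in *ulp2* null 500G cells, against 4758, 4773 and 4682 FPKM in WT 50G cells (-0.20, adjusted p = 0.041). This single lower call of the list was lost (0 lower) in a fit of both groups alone, under median-of-ratios scaling and without any one of 5 libraries, all but *ulp2* null 500G replicate 2. With the replicate block 2 genes of the list were lower. *MLS1*, the malate synthase, changed by -0.18 (adjusted p = 0.069). *PCK1* and *FBP1*, the key enzymes of gluconeogenesis, changed by -0.21 (adjusted p = 0.071) and 0.02 (adjusted p = 0.86). These genes were already among the highest in WT 50G cells, although they are known to be repressed in glucose. *PCK1* ranked 17th of the coding genes in *ulp2* null 500G cells and the 8th in WT 50G cells, at 7287 ± 816 and 8402 ± 155 FPKM. *HXT1*, a low-affinity transporter for high glucose, ranked 4060th in *ulp2* null 500G cells and 3891st in WT 50G cells. The glucose left in each culture at harvest is not in the files, and its part in these differences was not tested.

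**Figure D3:**
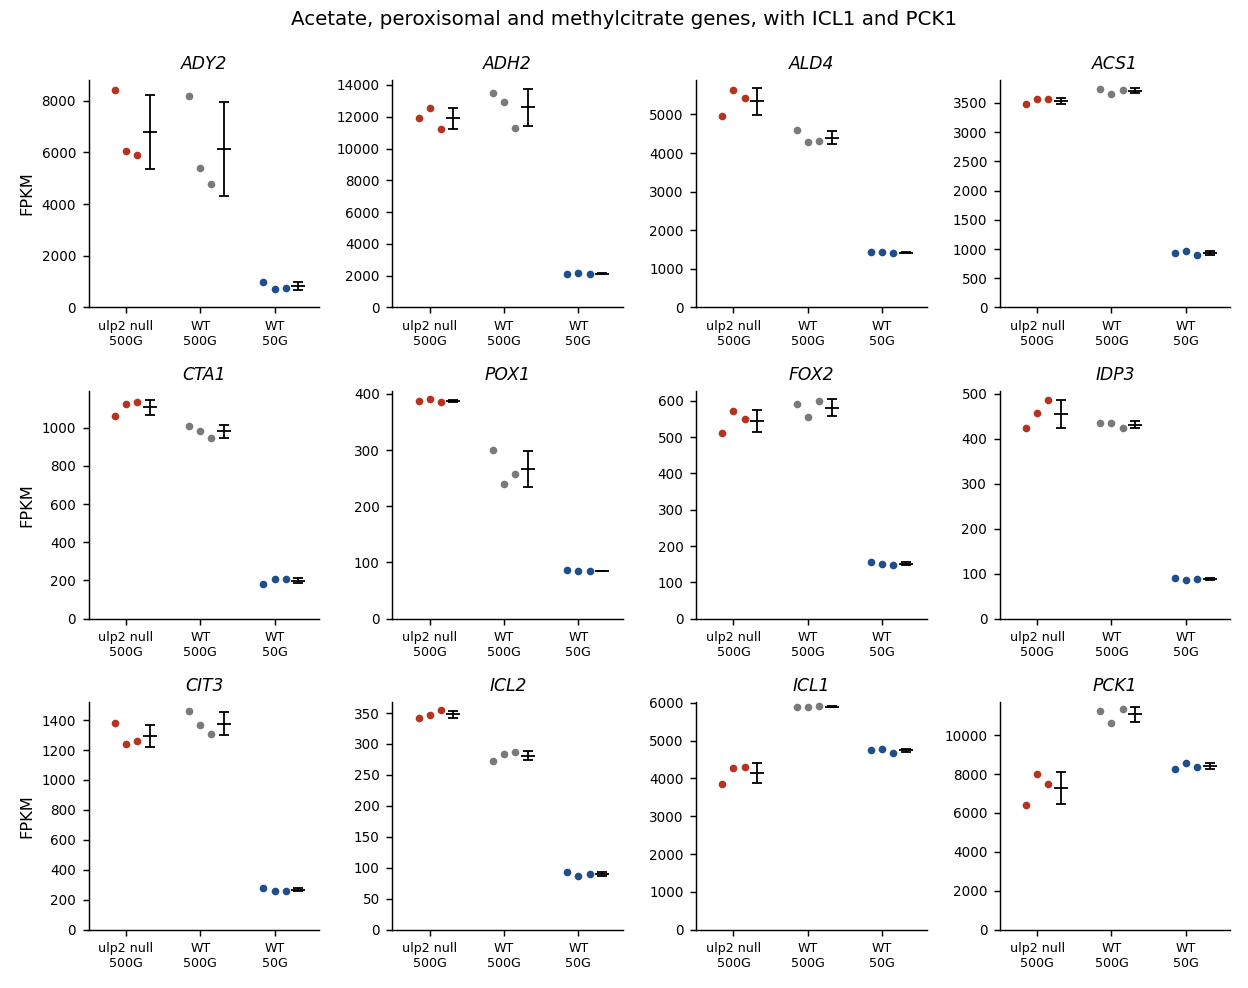
FPKM of 12 carbon metabolism genes in each library of *ulp2* null 500G (red), WT 500G (grey) and WT 50G (blue), with the mean and SD of 3 libraries as a black bar. For the first 10 genes the *ulp2* null 500G libraries lie above all WT 50G libraries, while *ICL1* and *PCK1* are lowest in *ulp2* null 500G.

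Peroxisomal fatty acid oxidation was the most uniform of the longer lists: 16 of 19 genes were higher, none was lower, and the median change was 1.55. The lower calls became 1 with the replicate block or without *ulp2* null 500G replicate 1, and 2 under an equal sum. *CTA1*, the peroxisomal catalase that removes the hydrogen peroxide made by the first step, had 1062, 1123 and 1133 FPKM in *ulp2* null 500G cells, against 182, 208 and 207 FPKM in WT 50G cells (2.47, adjusted p = 1.5e-09). *POX1*, the acyl-CoA oxidase of that first step, had 387, 390.1 and 385 FPKM in *ulp2* null 500G cells, against 85.7, 84.6 and 84.3 FPKM in WT 50G cells (2.18, adjusted p = 4.3e-08). The groups were thus separated several times over their spread. *FOX2*, the multifunctional second enzyme, rose by 1.84 and *POT1*, the thiolase, by 1.55. The isomerases needed for unsaturated fatty acids rose by 2.32 (*DCI1*) and 2.06 (*ECI1*), and *IDP3*, which supplies NADPH for the same task, by 2.36. The 3 members that did not pass the test were the transporters *FAT1* (-0.24) and *ANT1* (-0.05) and the NADH diphosphatase *NPY1* (-0.15). The peroxins, which build the organelle and import its proteins, moved less: 11 of 29 were higher and 1 was lower, with a median of 0.12. Under an equal sum 6 were higher and 11 lower, with a median of -0.18. The lower calls became 3 with the replicate block and 2 without *ulp2* null 500G replicate 1 or 2. *PEX11*, which promotes peroxisome division, led them at 1.30 (adjusted p = 2.1e-05), followed by *PEX14* at 0.99. *PEX25*, another division factor, went the other way (-0.52, adjusted p = 0.0031).

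Fatty acid oxidation genes are known targets of the activators Oaf1 and Pip2, which bind the oleate response element. The upstream stretch of 8 of these genes is shown because all 8 rose and all hold a match. The match, in capitals, is CGGNNNTNA, then 9 to 12 bases of any kind, then CCG, on either strand, between 500 and 100 bases before the start codon. Each stretch is read on the strand of its gene from the RefSeq R64 genome.
*CTA1*, chrIV:969863-969892: ggaCGGCTTTAACAAATATAAACTCCGaaa
*POX1*, chrVII:107880-107908: attCGGTCATTAGCGGCTAATAGCCGttg
*FOX2*, chrXI:457333-457362: gttcCGGAAGCCTAGTTTTAAGTCCGaaag
*POT1*, chrIX:41607-41635: aaaCGGGGATAATAGTATTAACACCGcag
*DCI1*, chrXV:675283-675312: tagCGGCTGTAAGCGCGCTAAACTCCGaca
*ECI1*, chrXII:707188-707216: cgaCGGGCATAAGAAATATTATTCCGaaa
*IDP3*, chrXIV:614506-614534: cctCGGATTTAGCATGCTTAATGCCGaat
*SPS19*, chrXIV:259409-259438: tcaCGGCGTTAAGTATATCAAACTCCGtca

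Of the 19 listed genes, 12 held a match in this window (63.2%), against 106 of 5890 coding genes with a window (1.8%). All 12 were among the 16 that rose. Among the 87 coding genes over 2-fold higher, 13 held a match (14.9%), and among 78 over 2-fold lower with a window, 1 did (1.28%). Of the 106 genes with a match, 35 were higher, the 12 listed genes among them, and 16 were lower, with a median change of -0.0038. Over all coding genes tested, 16.6% were higher and 18.9% lower. A match is a description of the sequence and not evidence of binding.

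Of the other largest rises, *RGI2* and *SPG1* are known from cells short of glucose. *RGI2*, which is linked to energy metabolism under respiration, had 4109.6, 4414 and 4720.0 FPKM in *ulp2* null 500G cells, against 419, 460.2 and 473 FPKM in WT 50G cells (3.29, adjusted p = 1.9e-09). *SPG1*, required for survival in stationary phase, rose by 2.32, and *TIP1*, a cell wall mannoprotein, by 2.36. None of these differed from WT 500G cells at an adjusted p under 0.05 (0.09, -0.24 and 0.11). Another of the 15 largest rises, *YLR154C-H*, lies in the ribosomal DNA region and matches 5 other places at 90% identity or more. It had 3011, 3437 and 1352 FPKM in *ulp2* null 500G cells, against 656, 857 and 216 FPKM in WT 50G cells (2.28, adjusted p = 0.007), and replicate 3 was the lowest library in both groups.

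Genes downstream of acetyl-CoA moved little. Of 16 genes of the tricarboxylic acid cycle, 4 were higher and 2 lower, with a median of 0.16. Under an equal sum 0 were higher and 3 lower, with a median of -0.14. With the replicate number as a block, 7 were higher and 2 lower, and leaving out each library gave 3 to 6 higher and 1 lower. Of 38 genes of the respiratory chain and ATP synthase, 12 were higher and 2 lower, with a median of 0.17. The higher calls became 6 without WT 50G replicate 2 and 7 without *ulp2* null 500G replicate 3, and under an equal sum 1 was higher and 9 lower, with a median of -0.13. *NDE2*, an external NADH dehydrogenase, rose by 1.45 (adjusted p = 4.4e-06). *CYC1*, the main cytochrome c, went the other way, at 581, 513 and 523 FPKM in *ulp2* null 500G cells, against 1112, 1221 and 1289.6 FPKM in WT 50G cells (-1.16, adjusted p = 1.6e-06). Among the storage carbohydrate genes for trehalose and glycogen, 11 of 21 were higher and 3 lower, with a median of 0.25. These became 6 and 8 under an equal sum, with a median of -0.05. *GIP2*, a putative regulatory subunit of the glycogen-linked phosphatase Glc7, rose by 1.34, and *ATH1*, which degrades trehalose outside the cell, by 0.91. Of 34 genes of glycolysis and fermentation, 6 were higher and 11 lower (2 and 22 under an equal sum), and apart from *ADH2*, *ALD4* and *ADH1* no member called passed 2-fold. *HXT2*, a high-affinity glucose transporter, fell by 1.34 (adjusted p = 0.0014). Of the 20 genes of the hexose transporter list 3 were higher, the sensor *SNF3* and the near-identical *HXT13* and *HXT17*. That share is below the background, and the calls became 0 or 1 without any one library but WT 50G replicate 1, 0 under an equal sum and 5 with the replicate block. Among the regulators of glucose repression 6 of 26 were higher and 5 lower, or 1 and 10 under an equal sum. The lower calls became 3 without *ulp2* null 500G replicate 1 or 3 or WT 50G replicate 2. Those that fell by over 2-fold were *TOS3* (-1.13), a kinase that activates Snf1, *STD1* (-1.06), a regulator of glucose sensing, and *NRG2* (-1.04), a repressor. *PIP2*, named above as an activator, rose by 0.53.

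Protein turnover genes were higher by small amounts. Of 33 proteasome genes, 22 were higher and 1 lower, with a median of 0.30. These became 3 and 2 under an equal sum, with a median of 0.00. *RPN8* led at 0.64 (adjusted p = 0.00042), and the gene that went against the rest was *RPN4*, the transcriptional activator of the proteasome genes (-0.42, adjusted p = 0.025), a call lost without *ulp2* null 500G replicate 1 or 2 or WT 50G replicate 2 or 3. Of 32 autophagy genes, 15 were higher and 0 lower, with a median of 0.21. The higher calls became 8 without WT 50G replicate 1, 9 without *ulp2* null 500G replicate 2 or 3, and 9 in a fit of both groups alone. Under an equal sum 3 were higher and 5 lower, with a median of -0.08, and with the replicate block 1 was lower. *ATG8*, whose product coats the autophagosome, had 1097, 1435 and 1454 FPKM in *ulp2* null 500G cells, against 649, 762 and 734 FPKM in WT 50G cells (0.88, adjusted p = 0.0002). Genes for ribosomal proteins of the cytoplasm showed a shift of like size: 72 of 137 were higher, and 1, *RPL15B* (-0.35), was lower. Their median was 0.31. The calls became 10 higher and 9 lower under an equal sum, with a median of 0.03, and the lower call was lost without *ulp2* null 500G replicate 1 or WT 50G replicate 2 or 3. The largest called changes were those of *RPL41B* (0.88), which cannot be told cleanly from its copy *RPL41A* at 98.7% identity, and *RPS20* (0.70). Cytoplasmic ribosome assembly factors did not share the rise, with 8 of 94 higher and 17 lower and a median of -0.08. The higher calls became 14 with the replicate block, 13 without *ulp2* null 500G replicate 1 and 5 without *ulp2* null 500G replicate 3 or WT 50G replicate 1, and under an equal sum 1 was higher and 51 lower.

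**Figure D4:**
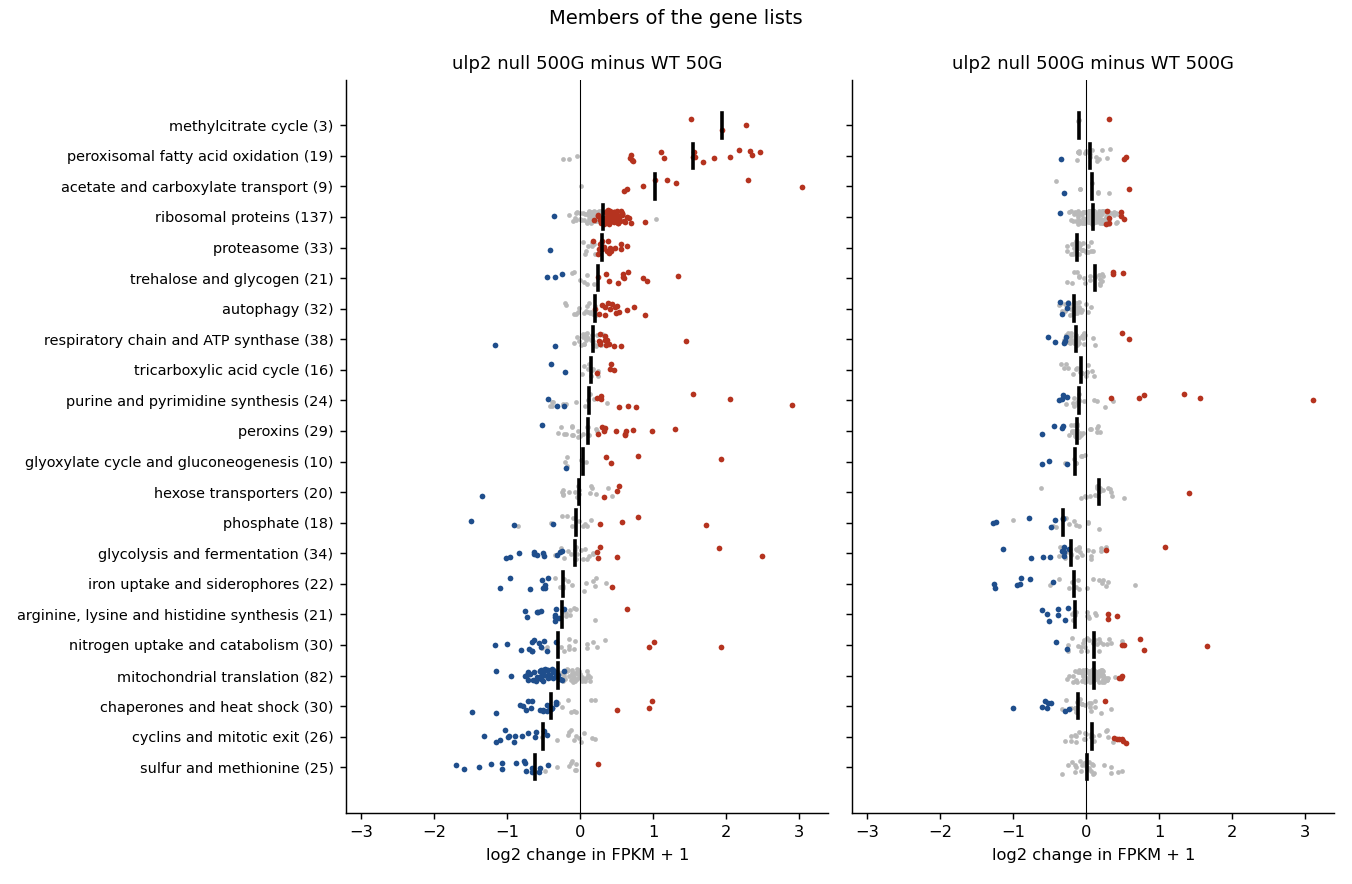
Change of each member of 22 gene lists (log2 of FPKM + 1), *ulp2* null 500G minus WT 50G on the left and minus WT 500G on the right, with the number tested in parentheses. Red and blue points are genes higher and lower at an adjusted p under 0.05, grey points did not pass, and black bars are medians, which run between -0.62 and 1.94 on the left. *FDH1* and the marker genes *URA3* and *TRP1* are in none of the lists drawn.

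Among the genes that fell, sulfur amino acid metabolism had the lowest median of the lists, -0.62, with 15 of 25 genes lower and 1 higher. *MUP1*, the high-affinity methionine permease, had 43.2, 30.3 and 31.4 FPKM in *ulp2* null 500G cells, against 119, 119 and 106 FPKM in WT 50G cells (-1.70, SE 0.20, adjusted p = 0.00014). The groups did not overlap. *SAM2* and *SAM1*, which make S-adenosylmethionine, fell by 1.59 and 1.38, and *MET6*, which makes methionine from homocysteine, by 1.22. *MET17* (-1.07) and *CYS3* (-1.06) act in homocysteine and cysteine synthesis. Members that did not pass the test included the sulfate permeases *SUL1* (-0.07) and *SUL2* (-0.11) and *CYS4* (-0.05). *STR2*, which turns cysteine towards homocysteine, was the only member higher (0.25, adjusted p = 0.01).

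Sulfur genes are known to be activated through Cbf1 and Met4 at the palindrome CACGTG, which reads alike on both strands and was searched in the same window. The 4 called genes that fell by over 2-fold and hold it are shown with the match in capitals, read on the strand of each gene.
*SAM2*, chrIV:1454770-1454799: aatatttctaccCACGTGactataattgag
*MET6*, chrV:342645-342667: tatttCACGTGacttacaaacag
*MET17*, chrXII:732230-732259: aatggcaaatggCACGTGaagctgtcgata
*CYS3*, chrI:130571-130600: taattagccattCACGTGatctcagccagt

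Of the 25 sulfur genes, 17 held CACGTG (68%), against 339 of 5890 coding genes with a window (5.76%), and *MUP1* and *SAM1* did not. Among the 339 genes with a match, 52 were higher and 81 lower, with a median change of -0.05. The 78 coding genes over 2-fold lower held it in 10 cases (12.8%), and the 87 over 2-fold higher in 4 (4.6%).

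Mitochondrial translation was the longest list to move one way: 42 of 82 genes were lower and 0 higher, with a median of -0.30. Without *ulp2* null 500G replicate 1, 39 were lower and 2 higher. *MST1*, the mitochondrial threonyl-tRNA synthetase, had 6.52, 7.30 and 8.43 FPKM in *ulp2* null 500G cells, against 17.5, 18.5 and 16.9 FPKM in WT 50G cells (-1.15, adjusted p = 3.9e-05). *MSW1*, the tryptophanyl counterpart, fell by 0.95, and the ribosomal protein genes *MRPL39* and *MRPL4* by 0.76 and 0.72. *IFM1*, a mitochondrial initiation factor, fell by 0.45 (adjusted p = 0.019), at 16.8, 21.6 and 20.7 FPKM in *ulp2* null 500G cells, against 27.3, 26.6 and 27.6 FPKM in WT 50G cells. *UBC9*, the SUMO-conjugating enzyme, rose by 0.35 (adjusted p = 0.0069).

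Cyclins and genes of mitotic exit were lower in 14 of 26 cases and higher in 0, with a median of -0.51, and 1 was higher with the replicate block or without *ulp2* null 500G replicate 1. *TEM1*, the GTPase that starts the mitotic exit network, fell by 1.31 (adjusted p = 0.00051). *KIN3*, a mitotic kinase, fell by 1.15 and the G1 cyclin *CLN2* by 1.09, at 19.8, 18.6 and 20.9 FPKM in *ulp2* null 500G cells, against 43.5, 42.1 and 44.4 FPKM in WT 50G cells. *CLB2*, the main mitotic cyclin, fell by 0.99 (adjusted p = 0.00052) and *CDC20*, the activator of anaphase, by 0.97. *CLN3*, the upstream G1 cyclin, changed by -0.17 (adjusted p = 0.13). *SIC1*, an inhibitor of the cyclin kinase, changed by 0.01. In these bulk samples a smaller share of cells in a cycle stage and less RNA per cell cannot be told apart.

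Heat shock and chaperone genes were lower in 19 of 30 cases and higher in 3 (5 without *ulp2* null 500G replicate 1), with a median of -0.39. *HSP30*, a membrane protein that restrains the proton pump Pma1, had 595, 415 and 406 FPKM in *ulp2* null 500G cells, against 1546, 1200.5 and 1168 FPKM in WT 50G cells (-1.48, adjusted p = 0.001). *BTN2*, which sequesters misfolded proteins, fell by 1.15, *SSA2*, a constitutive Hsp70, by 0.82 and its partner *YDJ1* by 0.78. The members that rose were *SSA3* (0.99), *HSP12* (0.94) and *HSP26* (0.50), which are known to be induced when cells leave glucose. Genes for nitrogen uptake and catabolism were lower in 13 of 30 cases and higher in 3 (5 with the replicate block), with a median of -0.30. *DUR3*, a urea transporter, fell by 1.16, whereas *PTR2*, a di- and tripeptide transporter, rose by 1.93, *GDH2*, the glutamate dehydrogenase that releases ammonium, by 1.02 and *PUT4*, a proline permease, by 0.94. Arginine, lysine and histidine synthesis was lower in 11 of 21 genes and higher in 1, *HIS1* (0.65), or 2 with the replicate block or without *ulp2* null 500G replicate 1, with a median of -0.25.

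Several of the largest single falls belonged to none of the groups above. *YHB1*, a flavohemoglobin that detoxifies nitric oxide, had 313, 347 and 341 FPKM in *ulp2* null 500G cells, against 1078, 1022 and 1010.2 FPKM in WT 50G cells (-1.63, adjusted p = 2.3e-08). *HOT13*, a zinc-binding protein of the mitochondrial intermembrane space, fell by 1.42, and *HST3*, a sirtuin that deacetylates histone H3, by 1.26. *YJL107C* (-1.91) and *PRM10* (-1.59) are neighbours on chromosome X. *YGR035C* (-1.68) and *YNR014W* (-1.63) have no well-defined function. Short genes at low levels need care: *YNR075C-A* and *MIN4* were listed at 0 in all 3 *ulp2* null 500G libraries, against 41.5 to 127 FPKM for *YNR075C-A* and 16.6 to 53.1 FPKM for *MIN4* in WT 50G libraries. No fold change is given for these, and the WT 500G libraries listed *YNR075C-A* at 0 as well.

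The same groups were set against WT 500G cells, at equal passage. Against WT 500G cells the median change of *ulp2* null 500G cells was 0.06 for peroxisomal fatty acid oxidation, 0.08 for acetate and carboxylate transport, -0.09 for the methylcitrate cycle, 0.01 for sulfur metabolism, 0.11 for mitochondrial translation, 0.08 for cyclins and mitotic exit and -0.12 for the proteasome. Set side by side, WT 500G minus WT 50G gave medians of 1.43, 1.00, 1.63, -0.58, -0.35, -0.66 and 0.39 for the same lists, from fits that share the WT 50G libraries with the main comparison. In the direct test of the strains at 500G, 0 of 25 sulfur genes and 0 of 33 proteasome genes passed. In peroxisomal fatty acid oxidation 3 of 19 passed, *POX1* (0.55) and *DCI1* (0.52) higher and *FAA4* (-0.34) lower in *ulp2* null 500G cells. Of the cyclins and mitotic exit genes 6 of 26 were higher than in WT 500G, among them *CLN3* (0.49) and *NRM1* (0.54). Of 137 ribosomal protein genes, 7 were higher and 1 lower than in WT 500G, with a median of 0.095, beside 5.06% of coding genes higher. WT 500G minus WT 50G gave 53 of the 137 higher and 2 lower, with a median of 0.23. In that comparison 1344 of 5891 coding genes were higher. Some lists held more lower calls against WT 500G than the 6.50% over all coding genes. Calls in this contrast depended on the setting. The 383 lower coding genes became 68 in a fit of both groups alone, 125 under an equal sum and 829 with the replicate block. The list counts against WT 500G, here and below, are those of the main fit. Glycolysis and fermentation had 9 of 34 lower (median -0.20), chaperones 8 of 30 (median -0.11), arginine, lysine and histidine synthesis 7 of 21 (median -0.15) and autophagy 4 of 32 (median -0.16). A test that was not passed does not show equal levels. For *ADH2*, at 11897 ± 656 FPKM in *ulp2* null 500G cells and 12594 ± 1154 FPKM in WT 500G cells, the difference was -0.08 with an SE of 0.08.

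A few genes of pyrimidine synthesis and uptake separated *ulp2* null 500G cells from WT cells at both passages. *URA1*, the dihydroorotate dehydrogenase, had 486, 454 and 483 FPKM in *ulp2* null 500G cells, against 54.9, 53.3 and 54.9 FPKM in WT 500G cells and 64.6, 60.5 and 63.5 FPKM in WT 50G cells. The change was 2.90 from WT 50G (adjusted p = 1.9e-09) and 3.10 from WT 500G (adjusted p = 4.2e-09). *URA2*, which carries out the first steps of the pathway, rose by 1.55 over WT 50G and 1.35 over WT 500G. *URA4*, the dihydroorotase, rose by 0.77 and 0.72 in the same comparisons, and *FUI1*, the uridine permease, by 2.05 and 1.56. *URA3*, the last enzyme of the pathway and the plasmid marker, was at 36.9 ± 1.63 FPKM in *ulp2* null 500G cells, against 1584 ± 53.4 FPKM in WT 500G cells, and its part in the rise of the others was not tested. Over the list of 24 purine and pyrimidine genes, 9 were higher and 3 lower than in WT 50G (12 and 8 with the replicate block, and 1 lower without any one WT 50G library), with a median of 0.12. Under an equal sum 6 were higher and 11 lower, with a median of -0.18. Against WT 500G, 6 of the 24 were higher and 4 lower, with a median of -0.09.

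The activator Ppr1 is known to bind upstream of several *URA* genes at CGGNNNNNNCCG. This match, which reads alike on both strands, was searched in the same window and is shown for the genes of the pathway that hold it.
*URA1*, first match, chrXI:24994-25023: tttcttcacCGGGCTTTGCCGaaggttatt
*URA1*, second match, chrXI:25025-25054: cacgatcttCGGCATTCGCCGaaaattttt
*URA4*, chrXII:963646-963675: ttcatcattCGGAGAATTCCGatgaatcgg
*FUI1*, chrII:140591-140620: gttgatgctCGGGATTTGCCGgtttcgtcc
*URA3*, chrV:116006-116035: tttttgattCGGTAATCTCCGagcagaagg

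*URA1* held 2 matches, at 212 to 201 and 181 to 170 bases before the start codon. Of 5890 coding genes with a window, 156 (2.65%) held one, and these split into 37 higher and 32 lower than in WT 50G cells. *URA2*, which also rose, held none in this window.

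Other genes also parted the strains at 500G. *PTR2* had 119.8, 86.1 and 91.3 FPKM in *ulp2* null 500G cells, against 36.8, 26.2 and 29.2 FPKM in WT 500G cells (1.66, adjusted p = 0.00015). *RIB4*, the lumazine synthase of riboflavin synthesis, was higher than in WT 50G by 1.29 and than in WT 500G by 1.15. *HXK2*, the hexokinase that also acts in glucose repression, was higher by 1.08 than in WT 500G cells and by 0.27 than in WT 50G cells. Phosphate genes were lower than in WT 500G, where 7 of 18 passed, all lower. Against WT 50G, 4 of 18 were higher and 3 lower, with a median of -0.06. These became 4 and 5 with the replicate block and 2 and 10 under an equal sum. The higher calls became 2 without *ulp2* null 500G replicate 1 or 3 or WT 50G replicate 2 or 3. *PHO5*, the secreted acid phosphatase, had 40.3, 46.8 and 48.6 FPKM in *ulp2* null 500G cells, against 109, 107 and 107 FPKM in WT 500G cells and 129, 136 and 123 FPKM in WT 50G cells. *PHM8*, a phosphatase of nucleotide breakdown, was lower by similar amounts (-0.78 and -0.90). *PHO89*, the sodium-coupled phosphate transporter, stood between the WT groups, at 732 ± 60.2 FPKM in *ulp2* null 500G cells, 1779 ± 181 FPKM in WT 500G cells and 221 ± 8.62 FPKM in WT 50G cells. Iron uptake genes were lower in 7 of 22 cases against WT 500G. Against WT 50G, 8 were lower and 1 was higher. These became 12 and 4 with the replicate block and 13 and 0 under an equal sum. *FET3*, the multicopper oxidase of high-affinity uptake, had 40.3, 48.8 and 43.2 FPKM in *ulp2* null 500G cells, against 88.0, 81.6 and 87.7 FPKM in WT 500G cells. *CTR1*, the copper transporter that supplies it, fell by 1.42 from WT 50G and 0.81 from WT 500G. *SPS100*, a spore wall protein, was higher than in WT 50G by 1.00 but lower than in WT 500G by 2.77 (adjusted p = 5.5e-07). *RIB4*, *HXK2* and the WT 500G values of genes outside the lists were singled out after their values were seen.

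**Figure D5:**
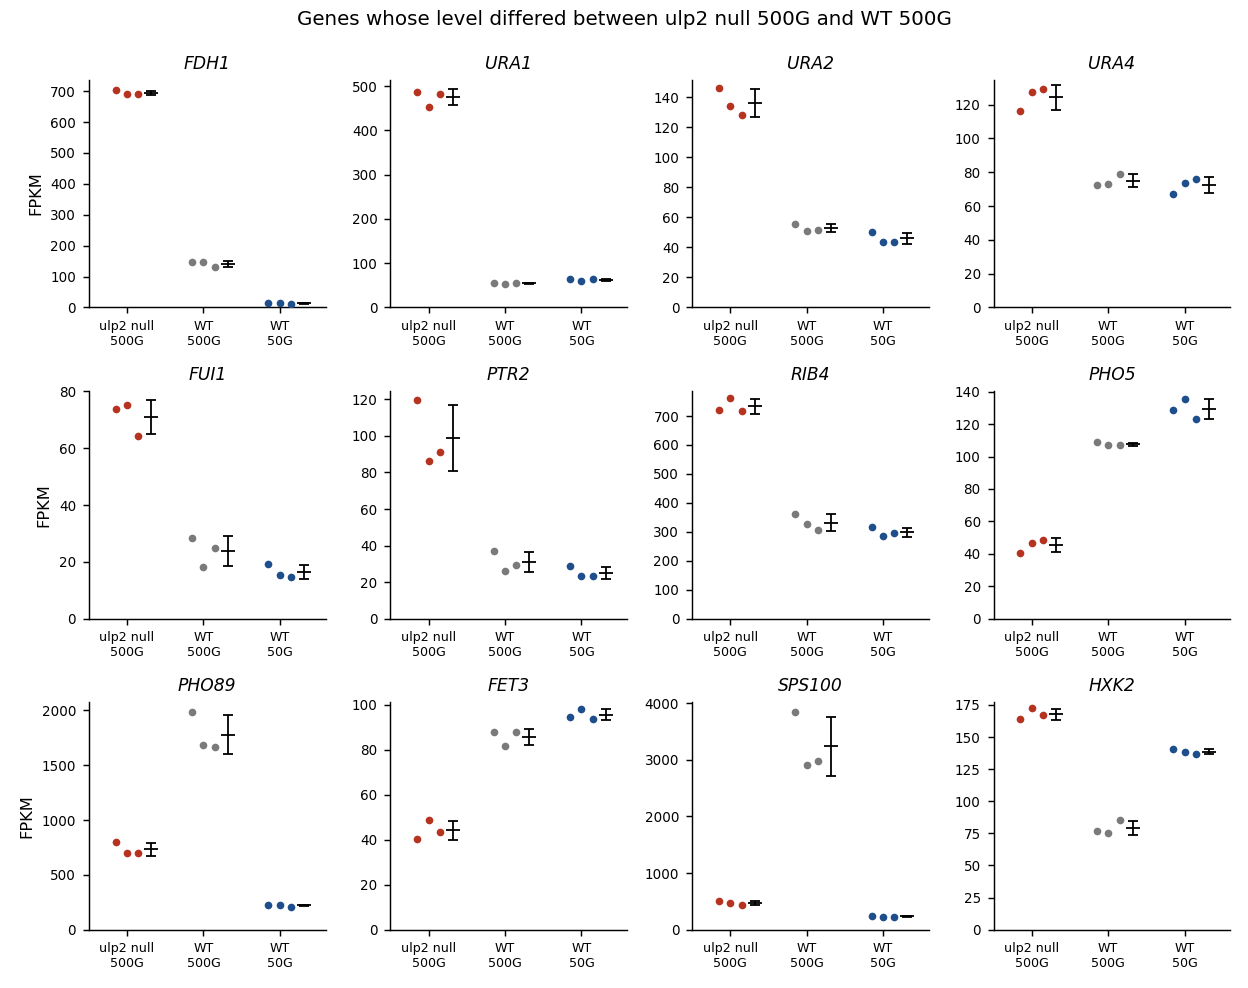
FPKM of 12 genes that differed between *ulp2* null 500G (red) and WT 500G (grey) at an adjusted p under 0.05, with WT 50G (blue), 1 point per library and the mean and SD of 3 libraries as a black bar. *URA1* lies near 474 FPKM in *ulp2* null 500G and near 60 FPKM in both WT groups, while *PHO89* and *SPS100* are highest in WT 500G.

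Of 96 noncoding genes tested, 25 were higher, all of them over 2-fold, and 0 were lower. Of the coding genes, 16.6% were higher and 1.48% were higher over 2-fold. Over all 6572 genes, 1058 (16.1%) were higher and 1169 (17.8%) lower. Of 70 small nucleolar RNA genes tested, 16 were higher and 0 lower, with a median of 1.37, and with the replicate block 39 were higher. Leaving out 1 library moved the higher calls to between 6 and 34 and the median to between 0.92 and 1.82. The calls were 8, 6 and 34 without *ulp2* null 500G replicate 1, 2 or 3 and 28, 7 and 6 without WT 50G replicate 1, 2 or 3. A fit of both groups alone gave 5. Against WT 500G, 4 of the 70 were higher and 0 lower, with a median of 1.20, beside 5.06% of coding genes higher. WT 500G minus WT 50G gave these genes 1 higher call and a median of 0.10. Their replicates were wide apart, as for *snR128*, at 3932, 4096 and 1457 FPKM in *ulp2* null 500G cells, against 1980.2, 673 and 378 FPKM in WT 50G cells, where the groups overlap. *SNR76*, the largest rise among them, had 73.1, 27.8 and 45.1 FPKM in *ulp2* null 500G cells and was listed at 0 in 2 of 3 WT 50G libraries. The 5S ribosomal RNA gene *RDN5-1*, which has identical copies, rose by 2.25 (adjusted p = 0.0087) and its replicate 3 was the lowest in both groups. The labels name polyA RNA and the methods total RNA, so the capture of RNAs without a poly(A) tail is uncertain. Among other falls, *YDR008C* (-6.56) and *YIL030W-A* (-4.73) stood out, and *YDR008C* is known as a dubious open reading frame that overlaps *TRP1*. *YNL013C* rose by 1.83, and *YOR248W* fell by 1.78. *YLR466C-B* was listed at 0 in all *ulp2* null 500G libraries, against 8.97 to 52.1 FPKM in WT 50G libraries.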

How the data were processed

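RNA from 12 cultures was sequenced as strand-specific libraries. By the methods and labels, the authors trimmed reads, mapped them to the Ensembl R64 yeast genome with TopHat2 2.1.1, discarded reads with several locations, and used Cuffdiff of Cufflinks 2.2.1 (versions and build also in the submitters' processing notes). The deposited table gives FPKM per gene and library, normalized by the authors to transcript length and library size. Reads of near-identical genes are thus lost or split. No column of the table was left unused (0). Whole-read steps could not be recovered from the low values, so depth is unknown and no counts were tested.

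Columns were matched to samples by title. Genes were annotated with RefSeq R64 (of 7126 genes, 6048 matched by locus tag, 112 by symbol and 966 not). Values were tested as log2(FPKM + 1) for genes whose mean reached 1 FPKM, in limma 3.58.1 (R 4.3.3) with all 4 groups, empirical Bayes with a trend and Benjamini-Hochberg adjustment at 0.05. The methods name Cuffdiff, which needs alignments. The fits were tested on simulated data in which libraries varied independently, so that test does not cover deviations shared between libraries. Same-numbered libraries of *ulp2* null 500G and WT 50G deviated together (correlations 0.141, 0.115 and 0.135), so the replicate block is given where it moves a count by over 1.5 times. Upstream matches and near copies (90% identity or more) were read from RefSeq R64.

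The coding genes named are the 15 largest rises and 15 largest falls with an adjusted p under 0.05, over 2-fold, all 9 library pairs one way and a mean of 10 FPKM or more in a group, then up to 4 called members per list with those going against it, 5 other genes per direction, and genes the study names. Others were named after their values were seen. The comparison and the lists were chosen with earlier results of these data known. Alternatives were another pseudocount, filters, groups in the fit, the block, 2 scalings, no trend and leaving out each library.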

Additional observations from a re-analysis of the deposited data

Results flagged for a closer look

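For the genes named for the size of their change, the difference between the strains at 500G was tested directly (limma, *ulp2* null 500G minus WT 500G), and those that passed by over 2-fold are listed here. Higher in *ulp2* null 500G cells were *URA1* (3.10), *FDH1* (2.29), the pseudogenes *YPL276W* (2.02) and *FDH2* (1.85), *YPL277C* (1.36) and *YPL278C* (1.29). Lower were *ULP2* (-6.97), *YDR008C* (-6.09), *URA3* (-5.38), *TRP1* (-5.13), *YIL030W-A* (-4.33), *YGL177W* (-1.33), *PHO5* (-1.24) and *HSP30* (-1.001). *SNR76*, listed at 0 in all 3 WT 500G libraries (adjusted p = 0.012), and *YLR466C-B*, listed at 0 in all 3 *ulp2* null 500G libraries (adjusted p = 0.00071), also passed, and no fold change is given for them. For the others, adjusted p-values ran between 2.7e-11 for *URA3* and 0.025 for *HSP30*. Groups of 3 libraries were too small for a test of single outlying libraries.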

How the results depend on the processing

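When each library was scaled to an equal sum of FPKM, coding genes higher than in WT 50G became 318, lower 2829, over 2-fold higher 52 and over 2-fold lower 252, and those lower than in WT 500G became 125. Under it *CAF130* (-0.045) and *HTB1* (-0.013) changed sign. Fitting *ulp2* null 500G and WT 500G alone gave 52 higher, 68 lower and 11 over 2-fold higher. With the replicate block, 501 coding genes were higher and 829 lower than in WT 500G, where same-numbered libraries did not deviate together (correlations 0.157, -0.066 and 0.066). Against WT 50G the block gave 1300 higher and 1458 lower, and a fit of *ulp2* null 500G and WT 50G alone gave 849 and 976. Of 201 named genes the block changed the call of 1, now past the threshold. Other settings cost more of these genes their call: 20 in the fit of both groups alone and 21 under an equal sum. Without WT 50G replicate 1 the number was 9, and without WT 50G replicate 2 it was 20, with the other libraries between. Over all coding genes, leaving out each library gave 718 to 1050 higher, 821 to 998 lower, 87 to 97 over 2-fold higher and 69 to 85 over 2-fold lower. Other settings kept these counts within 1.5 times. Unknown depth and 3 libraries a group limit what low genes can show.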

Other observations

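Meiosis and sporulation genes were split in *ulp2* null 500G against WT 50G cells, with 7 of 37 higher and 11 lower. *IME1*, the master activator of meiosis, had 166, 204 and 221 FPKM in *ulp2* null 500G cells, against 72.9, 77.7 and 81.6 FPKM in WT 50G cells (1.33, adjusted p = 2.1e-05), while *MND1*, which acts in meiotic recombination, fell by 1.15. Drug and polyamine export genes were lower in 7 of 22 cases (11 with the replicate block) and higher in 2, led by *PDR16* (-0.87) and *PDR12* (-0.85). Oxidative stress genes were higher in 8 and lower in 9 of 27 cases, with 5 higher without *ulp2* null 500G replicate 3 or WT 50G replicate 2, and 2 higher and 14 lower under an equal sum. Of 17 genes for core and assembly proteins of small nucleolar RNA-protein particles, 3 were higher and 4 lower, with a median of -0.11. Under an equal sum these became 2 and 11. *TAH1* and *RSA1*, which help to assemble the particles, rose by 1.20 and 1.07.

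By chromosome, the median change of coding genes lay between -0.05 and 0.03 for 15 of 16 chromosomes and was -0.185 for chromosome XIII, where 48 of 463 genes were higher and 147 lower. This was seen after the data were examined. The median deviation of chromosome XIII genes from their mean over the 12 libraries, less that of genes elsewhere, was -0.0458, -0.0655 and -0.0691 in *ulp2* null 500G libraries, -0.0553, -0.0348 and -0.0447 in WT 500G libraries and 0.0914, 0.0753 and 0.0992 in WT 50G libraries. The chromosome number of these cultures is not in the files.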
